A study of Mus musculus with 42 samples.

Results

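RNAs that were less enriched with the silencing scaffold Tnrc6a in mouse embryonic stem cells without Trim71 were described here, in 2 separate experiments. Enrichment was the log2 ratio of RNA in the Tnrc6a immunoprecipitate (IP) to RNA in the input lysate, from the mean counts per 1000000 reads (CPM) of 3 libraries each, with 0.5 CPM added to both. A gene was taken when its enrichment in cells with tagged Tnrc6a was at least 0.5 above that in untagged cells and its enrichment in tagged Trim71 knockout cells lay 0.8 or more below that in tagged cells, with a mean tagged input of at least 2 CPM, in both experiments. Of 18620 genes listed for both experiments 48 met this, and 44 remained after Trim71, Mbnl1, Pank3 and Ndst1, which the rule leaves out by name, were removed. Experiment 1 alone gave 221 genes, of which 19.9% met the rule in both experiments, and experiment 2 alone gave 55, of which 80.0% did. Of the 44 RNAs, 42 had a gene symbol, all of which matched RefSeq (assembly GRCm38.p6), and 41 of these were protein coding. The losses of enrichment given below chose these RNAs, so they are a description and carry no test.

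All cells were mouse embryonic stem cells of strain 129S6/SvEvTac that carried a GFP_5xT71BS reporter (yGlob) and a stable FLAG-Cas9::T2A::Blasticidin construct. The untagged group had nothing further. The tagged group carried HA-AVI-Tnrc6a, the Trim71KO group carried HA-AVI-Tnrc6a and was Trim71-/-, and the Ago2KO group, in experiment 2 alone, carried HA-AVI-Tnrc6a and was Ago2-/-. Input RNA and RNA on anti-HA beads were sequenced from 3 dishes per group, giving 18 libraries in experiment 1 and 24 in experiment 2. The labels do not say whether each knockout line is a single clone or whether both experiments used the same lines, so the spread between libraries is that between dishes.

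Tnrc6a, a GW182 protein, is the scaffold that microRNA-loaded Argonaute proteins bring to messenger RNAs. It recruits the PAN2-PAN3 and CCR4-NOT deadenylases, which shorten the poly(A) tail and lead to repression and decay of the bound RNA. Trim71, the mammalian LIN-41, is an RNA-binding TRIM-NHL protein of early embryos and stem cells that represses messenger RNAs holding a short hairpin recognised by its NHL domain.

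The 18 libraries of experiment 1 held 12587257 to 23657840 counts each, and the 24 of experiment 2 held 16296447 to 21026552. The IP of HA-tagged Tnrc6a held its own RNA, 12159 to 20322 CPM in the 3 tagged IP libraries of experiment 2 against 73.4 to 89.9 CPM in untagged ones. In experiment 2 tagged IP replicate 1 had the highest level for 43 of the 44 RNAs and for 75.0% of 1990 other tag-enriched genes, and Ago2KO IP replicate 1 had the highest level for 43 and 79.2%. Without tagged IP replicate 1 of experiment 2, 31 of the 44 still met the rule. In experiment 1 the tagged input replicate 2 had the lowest level for 34 of the 44 and for 59.8% of the other tag-enriched genes. Trim71KO IP replicate 1 of that experiment had the highest level for 40 of the 44 and 88.6% of the others, and replicate 3 the lowest for 40 and 84.7%. Trim71 RNA was not lower in the input libraries labelled Trim71KO (317 to 322 CPM against 242 to 295 CPM in tagged input of experiment 1), so these counts do not check the loss of the protein, whereas Ago2 RNA in the Ago2KO input libraries was 169 to 178 CPM against 352 to 427 CPM. All 10 stem cell markers were listed, at a summed input of 7866 to 9868 CPM over all libraries. The sum of primitive endoderm markers was 64.8 to 88.2 CPM in tagged and 15.6 to 18.8 CPM in Trim71KO input of experiment 1, and 23.3 to 26.5 and 9.39 to 11.7 CPM in experiment 2 (7 of 8 markers listed), where Ago2KO input held 11.1 to 12.9 CPM. Primed epiblast markers, 3 of 4 listed, summed to 145 to 195 CPM in tagged and 196 to 202 CPM in Trim71KO input of experiment 1, and to 149 to 159, 223 to 249 and, in Ago2KO input, 150.1 to 157 CPM in experiment 2. The 2 fibroblast markers listed of 7 summed to 25.2 to 27.0 CPM in tagged and 65.9 to 70.6 CPM in Trim71KO input of experiment 1, and to 37.5 to 39.2, 51.7 to 54.8 and, in Ago2KO input, 32.0 to 37.5 CPM in experiment 2. No listed marker of these sets was at 0. Their part in the values below was not tested.

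Spty2d1, which encodes a histone chaperone (RefSeq GRCm38.p6 chr7:46990396-47008414), had the largest loss among the 42 genes with a symbol. In experiment 1 its IP level was 329, 337 and 374 CPM in the 3 tagged libraries, 117, 106 and 99 CPM in Trim71KO and 18, 15 and 16.7 CPM in untagged cells. Its input level was 20.3, 16.3 and 15 CPM in tagged and 25.8, 27.8 and 27.6 CPM in Trim71KO cells. All 3 Trim71KO libraries were below all tagged ones in the IP and above them in the input, and all Trim71KO IP libraries stayed above the untagged IP. In experiment 2 the IP level was 229, 197 and 171 CPM in tagged and 74.6, 77.6 and 83.1 CPM in Trim71KO cells, with inputs of 22.5, 24.3 and 24 CPM in tagged and 32.4, 29.7 and 35.9 CPM in Trim71KO cells. The ratio of IP to input went from 19.6 to 3.91 in the former experiment and 8.27 to 2.38 in the latter, a log2 difference in enrichment of -2.33 in experiment 1 and -1.80 in experiment 2.

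Nfib, a transcription factor of the nuclear factor I family (chr4:82290173-82506751), had the next largest mean loss over both experiments among genes with a symbol. Its IP level in experiment 1 was 676, 703 and 795 CPM in tagged, 297, 226 and 200.3 CPM in Trim71KO and 13.9, 14.9 and 15.1 CPM in untagged libraries. In experiment 2 these levels were 430.5, 342 and 288 CPM in tagged and 195, 191 and 193 CPM in Trim71KO libraries. The tagged and Trim71KO IP groups did not overlap in either experiment. The mean input was higher in Trim71KO cells, 33.4 ± 1.81 against 25.3 ± 5.08 CPM in tagged cells (SD, n = 3) of experiment 1. In experiment 2 it was 49.9 ± 2.69 CPM in Trim71KO and 30.4 ± 2.42 CPM in tagged cells (SD, n = 3). The log2 difference in enrichment was -1.98 in experiment 1 and -1.58 in experiment 2.

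Ccng2, cyclin G2, an atypical cyclin linked to cell cycle arrest (chr5:93267573-93276231), lost enrichment with no rise of its input. Its IP level in experiment 1 was 351, 376 and 457 CPM in tagged and 101, 95.5 and 95.4 CPM in Trim71KO cells, at inputs of 10.4, 11.4 and 10.1 CPM in tagged and 10.1, 9.37 and 11 CPM in Trim71KO cells. In experiment 2, where its tagged input was 63.6 ± 2.56 CPM (SD, n = 3), the IP level was 1395, 1165 and 992 CPM in tagged and 329, 339 and 402 CPM in Trim71KO cells. The highest Trim71KO IP library lay below the lowest tagged one both times, and the Trim71KO input of experiment 2 (50.3, 50.8 and 54.3 CPM) lay below all tagged inputs. The log2 differences in enrichment were -1.95 in experiment 1 and -1.44 in experiment 2.

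Ier5, an immediate early response gene (chr1:155096367-155099636), combined a lower IP with a higher input. The IP level was 81.9, 62 and 57.5 CPM in tagged and 42.9, 40 and 33.6 CPM in Trim71KO libraries of experiment 1, and 86, 72 and 63.1 CPM against 31.8, 34.5 and 39.2 CPM in experiment 2. The input was 2.19, 3.36 and 2.38 CPM in tagged and 5.65, 5.61 and 7.63 CPM in Trim71KO libraries of experiment 1, and 6.11, 7.73 and 5.57 CPM against 9.71, 11.1 and 8.45 CPM in experiment 2. Neither fraction overlapped between tagged and Trim71KO cells in either experiment. Its differences in enrichment were -1.89 in experiment 1 and -1.61 in experiment 2, and its mean input rise over both experiments was the largest of the genes with a symbol.

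**Figure D1:**
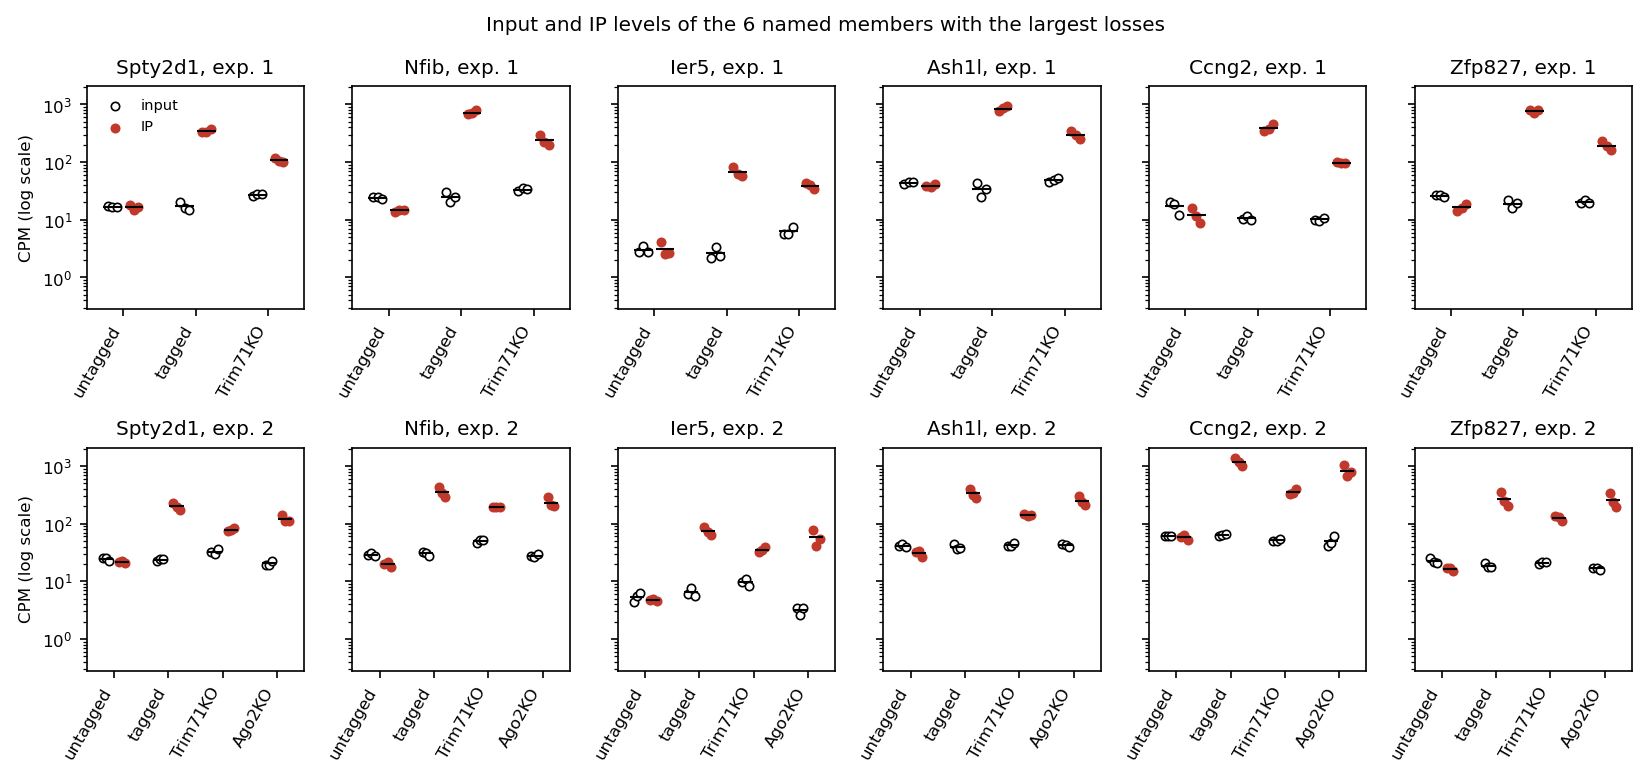
Levels of Spty2d1, Nfib, Ier5, Ash1l, Ccng2 and Zfp827 in each library, in CPM on a log scale, for experiment 1 (upper row) and experiment 2 (lower row). Open points are input libraries and filled points IP libraries, 3 per group, with a bar at the group mean. In every panel the Trim71KO IP points lie below the tagged IP points and above the untagged IP points.

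Of the 44 RNAs, 40 were sorted by what their proteins do, with the genes known, and 3 unnamed or predicted genes were set apart. Chromatin and transcription regulators were 14, and 8 more were zinc finger proteins. The 14 were Spty2d1, Nfib, Ash1l (a histone methyltransferase), Mllt1 (ENL, a reader of acetylated histones in the elongation machinery), Rcor1 (the CoREST corepressor), Phf2 (a histone demethylase), Tada2b (a SAGA adaptor), the DNA-binding factors Etv3, E2f3, Foxk1, Elk4, Crebzf and Trps1, and Scai, a cofactor that restrains the MRTF and SRF factors. Their median loss was -1.72 in experiment 1 and -0.95 in experiment 2. Ash1l had a ratio of IP to input of 24.6 with Trim71 and 5.95 without it in experiment 1, and 8.4 and 3.32 in experiment 2. Mllt1 had ratios of 19 and 4.95, then 7.92 and 3.19. The same ratio in untagged cells for Mllt1 was 0.717 and 0.857.

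The zinc finger genes were Zfp827, Zfp148, Zfp280b, Zfp180, Zfp91, Zfp367, Zkscan1 and Zfp629. Zfp280b had the highest input of all 44, and its IP level in experiment 1 was 1829, 1727 and 1975 CPM in tagged and 935, 856 and 787 CPM in Trim71KO libraries. Zfp827 went from 789.6, 714 and 814 CPM to 228, 191 and 159.7 CPM in that experiment at inputs of 19.1 ± 3.1 and 20.6 ± 1.61 CPM (SD, n = 3). Neither gene's groups overlapped in the IP. The median loss of the 8 was -1.29 in experiment 1 and -0.99 in experiment 2, and Zfp629 (-0.82 in experiment 2) was the member nearest the threshold. Next inside it in experiment 2 were Trps1 (-0.83) and Senp5 (-0.84), and the nearest genes outside it were Pip5k1a (-0.79), Lats1 (-0.79) and Sowahc (-0.78).

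Kinases, scaffolds and signal regulators were 6, namely Bmp2k, Cdk19 (a Mediator kinase), Pdik1l, Mob1b (a coactivator of the Lats kinases), Erbin (a scaffold that binds ErbB receptors) and Rapgef6 (an exchange factor for Rap GTPases). Cdk19 was scarce in the input, 10.9 ± 2.0 CPM in tagged cells of experiment 2 (SD, n = 3), and its IP level there was 292, 234 and 189 CPM in tagged and 134, 129.5 and 130.0 CPM in Trim71KO libraries. Mob1b had ratios of IP to input of 6.32 and 1.85 in experiment 1, and 3.31 and 1.51 in experiment 2. The median loss of these 6 was -1.65 and -1.14 in the 2 experiments.

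Proteases that remove ubiquitin or SUMO were 3, Yod1, Senp5 and Atxn3 (ataxin-3), with a median loss of -1.54 and -0.90. Membrane, lipid and sugar proteins were 5, Reep3 (which shapes endoplasmic reticulum membranes), Tmem263, Tbc1d12, Mfsd4a and St3gal4 (a sialyltransferase), with a median loss of -1.59 and -0.95. Reep3 stood at 149, 140.0 and 168 CPM in tagged and 77.4, 58.1 and 51.4 CPM in Trim71KO IP libraries of experiment 1, with no overlap. The other named genes were Ccng2, Ier5, Serpinc1 (antithrombin) and Fam168a, with a median loss of -1.76 and -1.32. Serpinc1 had the lowest tagged input per length of the 44, 0.706 RPKM (reads per kilobase of gene and per 1000000 reads) in experiment 1 and 0.970 in experiment 2.

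Of the RNAs left, Gm44505 is a long noncoding gene that overlaps Zfp91 in RefSeq, so reads of these 2 genes may be shared, as may those of Elk4 and Mfsd4a, which also overlap. ENSMUSG00000114165 has no symbol in the tables, and its IP level of 194, 210.0 and 208 CPM in tagged and 149, 125 and 101 CPM in Trim71KO cells of experiment 1 rested on inputs of 2.74, 2.69 and 4.45 CPM against 5.06, 5.56 and 5.15 CPM. ENSMUSG00000076281, a feature of 57 bases with no symbol, met the rule on few counts. Its tagged IP level in experiment 2 was 22.4, 2.53 and 2.24 CPM (398, 46 and 41 counts) against 1.86, 1.23 and 2.71 CPM in Trim71KO cells, and without tagged IP replicate 1 it no longer met the rule. In experiment 1 its IP level was higher in Trim71KO (2.15, 4.05 and 10.1 CPM) than in tagged cells (1.84, 3.57 and 2.11 CPM) on average, and its input went from 0.548, 2.51 and 4.69 to 41.3, 29 and 26.2 CPM. The untagged input of experiment 1 held 23, 24.8 and 18.2 CPM, so the 3 tagged input libraries stood below both the untagged and the Trim71KO ones. It is the single member whose loss in experiment 1 came from the input alone.

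Over all 44 the median loss was -1.57 in experiment 1 (range -2.42 to -1.0) and -0.996 in experiment 2 (range -2.15 to -0.82), and each RNA lost more in experiment 1. A loss of at least 2-fold was reached by all 44 in experiment 1 and by 22 in experiment 2. The enrichment over untagged cells that they started from was also larger in experiment 1 for 42 of the 44, at a median of 4.15 against 3.14. For the 1990 other tag-enriched genes these medians were 2.13 and 1.05. The rule required this enrichment in the same libraries, so nothing is read from the 43 of the 44 that edgeR called enriched over untagged cells in each experiment (28.1% and 18.9% of all genes). By edgeR's quasi-likelihood test, adjusted by Benjamini-Hochberg over all genes, 44 were called lower in Trim71-dependent enrichment in experiment 1 (3.47% of all genes tested) and 42 in experiment 2 (0.738%), which their choice fixes in advance. The 2 not called in experiment 2 were ENSMUSG00000076281 and ENSMUSG00000114165. The loss was partial for most: the Trim71KO ratio was a median of 33.6% of the tagged ratio in experiment 1 and 50.1% in experiment 2. Enrichment in Trim71KO cells was still at least 0.5 (log2) above untagged cells for 40 of the 44 in experiment 1 and 39 in experiment 2. It was at or below that of untagged cells for 4 in each: ENSMUSG00000076281, Scai and St3gal4 in both, Crebzf in experiment 1 and Tmem263 in experiment 2.

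Scai shows such a full loss. Its IP level was 41.8, 43.6 and 40.4 CPM in tagged, 17.8, 19.4 and 18.5 CPM in Trim71KO and 28, 26.9 and 20.8 CPM in untagged libraries of experiment 2. In experiment 1 it was 33, 47.1 and 48.7 CPM in tagged, 11.6, 13 and 8.92 CPM in Trim71KO and 14.4, 15.7 and 15.5 CPM in untagged libraries. The Trim71KO IP was below every untagged IP library both times. RefSeq lists other genes that overlap Scai, as it does for 22 of the 44.

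The lower enrichment was made of less RNA in the IP and, for most, more RNA in the input. The IP was lower in Trim71KO than in tagged cells for 43 of the 44 in experiment 1 and for 44 in experiment 2. Median log2 changes were -1.11 and -0.73. By edgeR each of these was also called lower, against 21.1% and 16.2% of all genes and 45.1% and 14.3% of the other tag-enriched genes. In 43 RNAs in each experiment all 3 Trim71KO IP libraries lay below all 3 tagged ones, as they did for 16% and 19% of all genes tested. The input was higher for 38 in each experiment, 35 of them in both, with median log2 changes of 0.40 and 0.27. All 3 Trim71KO input libraries lay above all tagged ones for 29 RNAs in experiment 1 (25.5% of all genes) and 26 in experiment 2 (15.2%). The fall of the IP was larger than the rise of the input for 40 and 39 of the 44. These IP and input libraries entered the rule, so the counts and calls in this paragraph are a description and no test.

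By edgeR 23 of the 44 were called higher in the Trim71KO input in experiment 1 (16.5% of all genes) and 23 in experiment 2 (13.5%), and 15 in both: Spty2d1, Nfib, Ier5, Mllt1, Reep3, Erbin, Fam168a, Rapgef6, Rcor1, Tada2b, Atxn3, St3gal4, Senp5, Zfp180 and Foxk1. The input also entered the rule, so these counts are a description. Without tagged input replicate 2 the count in experiment 1 was 15. Fam168a had an input of 65.1, 43.7 and 57.4 CPM in tagged and 96.9, 95.8 and 98.3 CPM in Trim71KO cells of experiment 1, and 56.2, 54.8 and 54.8 CPM against 96.5, 88.5 and 99.8 CPM in experiment 2, with no overlap in either. The largest falls of the input were those of Zfp629 (log2 -0.41 and -0.12 in the 2 experiments), Ccng2 (-0.07 and -0.29) and Serpinc1 (0.14 and -0.27), and Zfp629 in experiment 1 was the single member called lower. In these bulk lysates less RNA per cell and fewer cells that express it cannot be told apart.

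**Figure D2:**
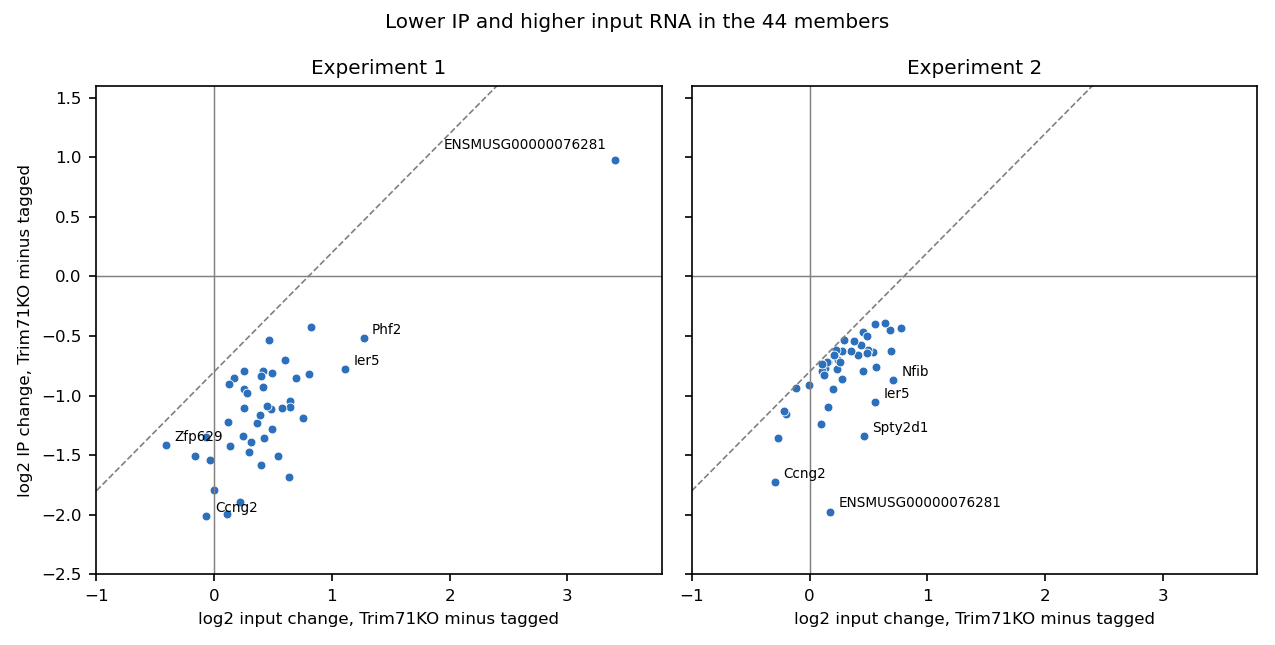
Change of the IP (vertical) against change of the input (horizontal) from tagged to Trim71KO cells, log2 of mean CPM plus 0.5, with a point for each of the 44 RNAs. The dashed line marks the threshold of a loss of 0.8, below which all points lie by the rule. Most points lie below 0 on the vertical axis and to the right of 0 on the horizontal axis, and ENSMUSG00000076281 in experiment 1 is the single point with a higher IP.

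Because each experiment was chosen on its own values, the genes chosen in either were followed in the other, whose libraries had no part in that choice. Of the 221 genes chosen in experiment 1 alone, 79 (35.7%) were called lower in Trim71-dependent enrichment in experiment 2 by edgeR. This compares with 0.738% of all genes and 2.01% of the 1990 other tag-enriched genes, which did not meet the loss in both experiments. The 1990 were set by values of both experiments, so their shares in this paragraph are a description and are not held out. The log2 change was below 0 for 207 of the 221. Its median was -0.57, against 0.01 for all genes and 0.13 for the other tag-enriched genes. Leaving out Trim71KO IP replicate 2 lowered the 79 to 44, and leaving out tagged input replicate 3 lowered them to 47. Of the 55 genes chosen in experiment 2 alone, 49 (89.1%) were called lower in experiment 1, against 3.47% of all genes and 17.0% of the other tag-enriched genes. The median of the 55 was -1.68, against -0.23 for the other tag-enriched genes, and all 55 were below 0. The input was followed in the same way: 72 of the 221 (32.6%) were called higher in the Trim71KO input of experiment 2, against 13.5% of all genes, and 15 (6.79%) lower, against 13.7%. Of the 55, 30 (54.5%) were called higher in the Trim71KO input of experiment 1, against 16.5%, and 1 lower, against 17.4%. Among the other tag-enriched genes 14.6% were called higher and 14.3% lower in the Trim71KO input of experiment 2, and 19.9% and 17.2% in experiment 1. The IP alone was also followed: 126 of the 221 were called lower in the Trim71KO IP of experiment 2, and 177 were below 0. There 16.2% of all genes and 14.3% of the other tag-enriched genes were called lower. Of the 55, 46 were called lower in the Trim71KO IP of experiment 1, and 47 were below 0. In that IP 21.1% of all genes and 45.1% of the other tag-enriched genes were called lower. A lower IP and a higher input were thus both called more often than among all genes, in libraries that did not choose the genes.

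The Ago2KO libraries of experiment 2 did not enter the rule, though the tagged libraries they are compared with did. By edgeR 23 of the 44 RNAs fell in enrichment in Ago2KO against tagged cells, against 3.77% of all genes tested, and 1 rose, against 0.384%. The log2 change was below 0 for 42 of the 44, against 49.5% of all genes, with a median of -0.61 against 0.003 for all genes. Of 1990 other genes that met the tag and input parts of the rule in both experiments but not the loss, 30.4% were called lower. The median of these other genes was -0.35, and 87.1% of them were at or below 0. In tagged cells they were less enriched over untagged cells than the 44, at a median of 1.05 against 3.14 in experiment 2. The 2 sets are thus not matched for the enrichment that could be lost. When only the tagged and Ago2KO groups entered the fit, 13 of the 44 were called. The tagged IP libraries that are high in the rule are the reference here too, so the 221 genes chosen in experiment 1 alone were also counted: 60 of them (27.1%) were called lower, at a median of -0.33, and 35 when only the compared groups were fitted. Their share is near that of the other tag-enriched genes.

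**Figure D3:**
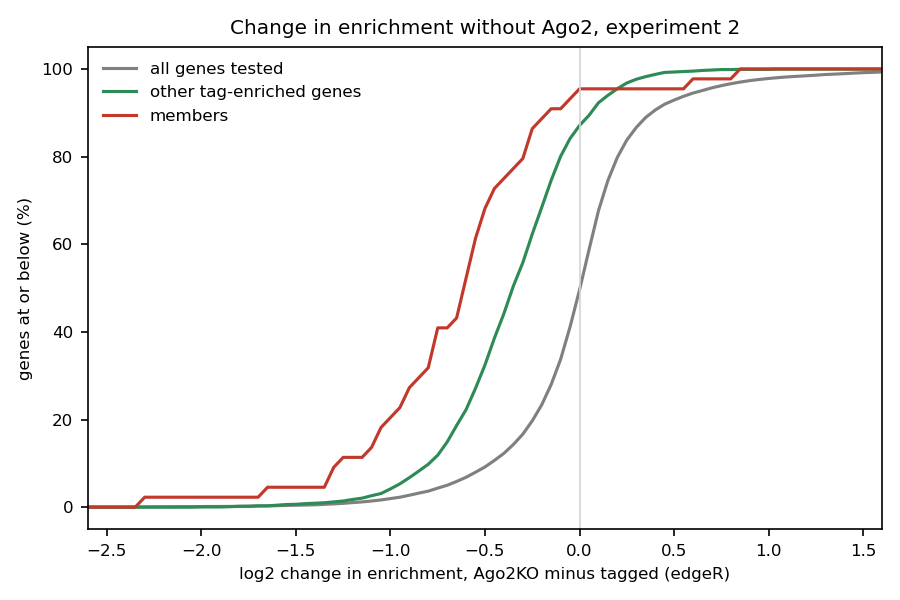
Cumulative share of genes (percent) at or below each log2 change in enrichment from tagged to Ago2KO cells in experiment 2, as edgeR estimated it. From -2.3 to 0.15 the curve of the 44 RNAs (median -0.61) lies to the left of both others. Those are the 1990 other tag-enriched genes (median -0.35) and all genes tested (median 0.003). From 0.2 to 0.8 the curve of the 44 lies to the right of that of the other tag-enriched genes. The tagged libraries behind the change also chose the 44.

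Cdk19, Serpinc1 and Reep3 were among the RNAs that fell most. Cdk19 stood at 135, 91.9 and 80.7 CPM in the Ago2KO IP libraries against 292, 234 and 189 CPM in tagged ones, with Ago2KO inputs of 14.6, 14.3 and 13 CPM, a log2 change of -1.69 (SE 0.26, edgeR adjusted p = 1.35e-04). Serpinc1 stood at 28.9, 26.3 and 25.1 CPM in Ago2KO and 77.5, 66.2 and 55.7 CPM in tagged IP libraries, with 22.3, 26.5 and 28 CPM in Trim71KO ones, and changed by -1.34 (SE 0.20, edgeR adjusted p = 1.06e-04). All Ago2KO IP libraries of both RNAs lay below all tagged ones, as for 29 of the 44 RNAs and 10.3% of all genes. The same tagged IP libraries helped choose the 44. Reep3 changed by -1.29 (SE 0.20, edgeR adjusted p = 1.85e-04). Those that fell also included Spty2d1, Mob1b, Erbin, Fam168a, Rcor1, Zfp148, Etv3, Atxn3, Tbc1d12, Zfp280b, Pdik1l, Yod1, Foxk1, Zfp91, Mfsd4a, Elk4, Crebzf, Trps1 and Gm44505. Spty2d1 changed by -0.61 (SE 0.17, edgeR adjusted p = 0.034). Its call was lost when only the compared groups were fitted (edgeR adjusted p = 0.155) and without any single tagged input library, tagged IP replicate 1, Ago2KO input replicate 1 or 3, or Ago2KO IP replicate 2 or 3 (edgeR adjusted p = 0.0548 to 0.13), and that of Zfp280b when only those groups were fitted (edgeR adjusted p = 0.0632).

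In the IP alone 40 of the 44 were called lower in Ago2KO cells by edgeR, against 9.32% of all genes and 42.8% of the other tag-enriched genes. The 1 called higher was St3gal4, against 7.04% and 3.97%. The tagged IP libraries, the reference for both counts, also chose the 44, so these counts are not independent of the choice. St3gal4 was also the RNA that rose in enrichment. Its IP level was 30.1, 19.6 and 20.7 CPM in Ago2KO, 17, 16.3 and 16.8 CPM in tagged and 12.2, 11.6 and 12.1 CPM in Trim71KO libraries, and its input 10.5, 8.66 and 6.5 CPM in Ago2KO, 11.6, 12.3 and 10.6 CPM in tagged and 17.1, 14.9 and 15.8 CPM in Trim71KO libraries. Every Ago2KO IP library was above, and every Trim71KO IP library below, the tagged ones. The log2 change was 0.82 (SE 0.22, edgeR adjusted p = 0.0259), and the call was lost when only the compared groups were fitted (edgeR adjusted p = 0.149) and without Ago2KO IP replicate 1 (log2 0.56, edgeR adjusted p = 0.0666), tagged input replicate 1 or 2, tagged IP replicate 2 or 3, or Ago2KO input replicate 2 or 3 (edgeR adjusted p = 0.0551 to 0.111). Ier5 was at 77.4, 41.5 and 53.7 CPM in the Ago2KO IP at inputs of 3.46, 2.61 and 3.48 CPM, a log2 change in enrichment of 0.56 (SE 0.31, edgeR adjusted p = 0.464). Its IP libraries overlapped those of tagged cells, while its Ago2KO input lay below all tagged inputs (log2 -0.99, SE 0.26, edgeR adjusted p = 0.02). Zfp827 changed by -0.01 (SE 0.27, edgeR adjusted p = 0.997), Zfp629 by -0.09 (SE 0.21, edgeR adjusted p = 0.927) and Phf2 by -0.18 (SE 0.18, edgeR adjusted p = 0.793), and none of the 3 passed the test. Ago2KO IP libraries of Zfp827, at 341, 239 and 197 CPM, overlapped the tagged ones (352, 252 and 201 CPM), where Trim71KO had 136, 129.9 and 111 CPM.

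Those that did not pass in either direction also included Nfib at -0.60 (SE 0.19, edgeR adjusted p = 0.0894), Ash1l at -0.63 (SE 0.19, edgeR adjusted p = 0.0619), Ccng2 at -0.28 (SE 0.21, edgeR adjusted p = 0.645) and Mllt1 at -0.39 (SE 0.22, edgeR adjusted p = 0.477), all among the 12 largest losses without Trim71. Nfib and Ash1l passed with DESeq2 (adjusted p = 0.0398 and 0.0232), and both passed in edgeR without tagged IP replicate 3 or Ago2KO IP replicate 1, as Mllt1 did without the latter (edgeR adjusted p = 0.0138). In Ccng2 the IP level was 1031, 666 and 772 CPM in Ago2KO cells, above all Trim71KO libraries and overlapping with tagged ones. Among the role groups, 7 of 14 chromatin and transcription regulators, 3 of 8 zinc finger genes, 4 of 6 kinases and signal regulators, 3 of 5 membrane, lipid and sugar proteins, 2 of 3 proteases, 2 of 4 other named genes and 1 of 3 unnamed or predicted genes were called lower by edgeR without Ago2. These small counts stand beside 3.77% of all genes and 30.4% of the other tag-enriched genes. Enrichment was lower in Trim71KO than in Ago2KO cells for 38 of the 44. The rule chose the 44 for low enrichment in these Trim71KO libraries and did not use the Ago2KO ones. The count is therefore largely set by the choice and is a description. No difference between the 2 knockouts was tested, and both comparisons use the same tagged libraries.

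Against untagged cells, 43 of the 44 RNAs were still enriched in Ago2KO cells by edgeR, the exception being ENSMUSG00000076281, against 15.8% of all genes and 89.1% of the other tag-enriched genes. The median log2 difference in enrichment of the 44 was 2.44. In tagged cells the other tag-enriched genes already had less enrichment over untagged cells than the 44 (median 1.05 against 3.14). The untagged libraries entered the rule too, as the level that tagged cells had to exceed, so this count is not independent of the choice. In the input of Ago2KO against tagged cells, Ier5 and Rcor1 (log2 -0.36, SE 0.08, edgeR adjusted p = 0.00737) were called lower and 0 higher, against 2.57% and 4.38% of all genes, where 5 were higher at an unadjusted edgeR p under 0.05 and DESeq2 called 2 higher. The count of members differing ran from 0 to 2 with single libraries left out and was 15 when only the compared groups were fitted. Among the other tag-enriched genes 12% were called higher and 1.56% lower in that input.

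**Figure D4:**
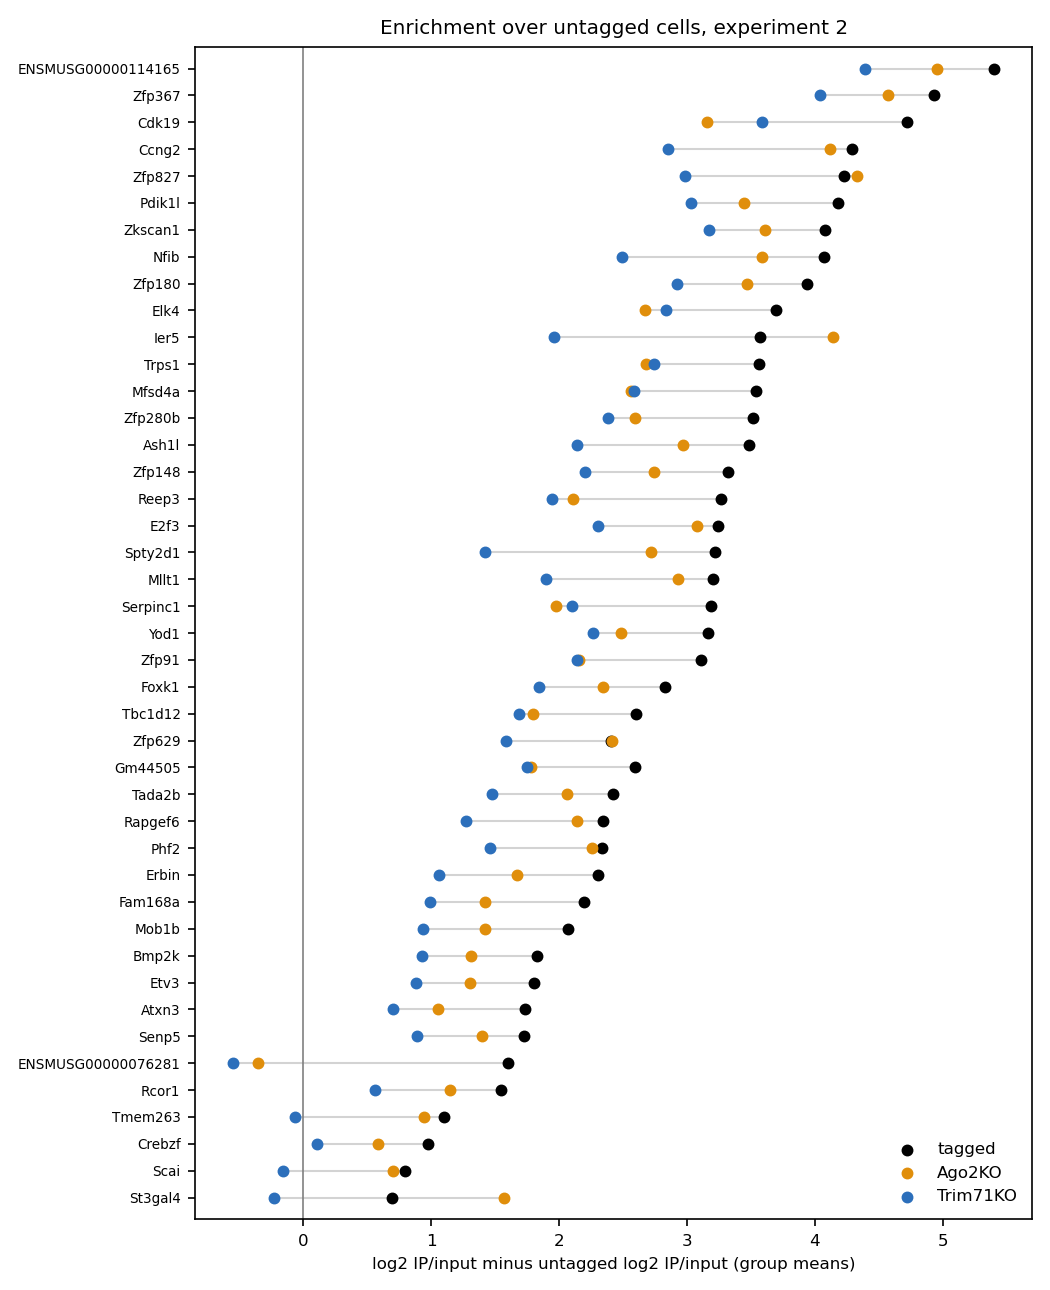
Enrichment of 43 of the 44 RNAs over untagged cells in experiment 2, as the log2 ratio of IP to input minus that in untagged cells, from group means. Points are tagged, Ago2KO and Trim71KO cells, sorted by the tagged value, and the line at 0 is the untagged level. Each Trim71KO point lies left of the tagged point of the same RNA by the rule, Ago2KO points lie between them for 34 RNAs and to the right of the tagged point for Ier5, St3gal4, Zfp827 and Zfp629, and 4 Trim71KO points lie left of 0.

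Ago2 and its relatives find their targets through microRNAs, and embryonic stem cells are known for the miR-290 and miR-302 clusters. Mature sequences of 3 of them are shown because they carry the seed by which this family pairs with its targets (bases 2 to 8, in capitals, RefSeq GRCm38.p6). They lie on the plus strand at chr7:3218968-3218989, chr7:3220691-3220712 and chr7:3220815-3220837.

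miR-291a-3p: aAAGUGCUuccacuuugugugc
miR-294-3p: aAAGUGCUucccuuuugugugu
miR-295-3p: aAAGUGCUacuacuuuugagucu

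Of 11 mature arms of these clusters in the table, 5 carried the seed AAGUGCU, the other 2 of them miR-302b-3p and miR-302d-3p. Transcript sequences were not searched for it. None of the 44 RNAs was on the list of 11 reported miR-290 targets or on that of 7 reported TRIM71 targets, which were compiled with results of these data known. Trim71, Mbnl1, Pank3 and Ndst1, which the rule leaves out by name, were on neither list. The absence holds for the listed genes alone and does not show that the set lacks known targets. Of the miR-290 list 2 were called lower by edgeR in Trim71-dependent enrichment in experiment 1 (Cdkn1a and Rbl2) and 0 of 10 tested in experiment 2, and 2 of 10 fell in Ago2KO cells (Ei24, log2 -1.28, and Akt1, log2 -0.54). Of the TRIM71 list, which shares Cdkn1a and Rbl2, 4 of 7 were called lower in experiment 1 (Cdkn1a, Inhbb, Rbl1 and Rbl2) and 0 of 6 in experiment 2. In experiment 2 an unadjusted edgeR p under 0.05 was also reached downward by 0 genes of each of these lists, and DESeq2 called 0 lower. No member was among 48 genes of the silencing machinery either, of which 8 were called lower in experiment 1, 1 in experiment 2 (Dcp2, the decapping enzyme, log2 -0.58) and 9 in Ago2KO cells. Nor was a member among 41 other RNA-binding regulators, of which 4 were called lower in experiment 1, and 1 lower and 4 higher in experiment 2 (0.753% of all genes were called higher there and 0.272% in experiment 1).

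The rule used neither the length nor the name of a gene. The median annotated length of the 44 was 6267.5 bases, against 5082 for the other tag-enriched genes and 3981.5 for 14164 genes with at least 2 CPM of tagged input in both experiments, and 36 of the 44 were at least 4000 bases long. The tagged input did enter the rule, as a minimum and in the ratio, so its level is a description. Its median per length was 2.5 RPKM in experiment 1 and 3.36 in experiment 2, against 3.99 and 4.65 for the other tag-enriched genes and 6.36 and 6.75 for the 14164. Zinc finger genes by the start of their symbol were 8 of 44 (18.2%), against 5.13% of the other tag-enriched genes and 2.90% of the 14164, and transcription factors by name (E2f3, Elk4, Etv3 and Foxk1) were 4 (9.09%), against 2.31% and 1.02%. Predicted or unnamed genes were 3 (6.82%), against 10.0% and 17.0%. The members lay on 16 chromosomes.

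RefSeq promoter windows (250 bases before to 50 after a start, GRCm38.p6) were available for 35 of the 44, in 43 windows, with Zfp91 and Gm44505 sharing the same window. Those of Ccng2 and Mllt1 are shown because they belong to the RNAs with the largest losses and hold the motif CCGGAAG, an ETS-type site searched on both strands and given in capitals. The windows are chr5:93267323-93267622 on the plus strand and chr17:56935339-56935638 on the minus strand.

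Ccng2: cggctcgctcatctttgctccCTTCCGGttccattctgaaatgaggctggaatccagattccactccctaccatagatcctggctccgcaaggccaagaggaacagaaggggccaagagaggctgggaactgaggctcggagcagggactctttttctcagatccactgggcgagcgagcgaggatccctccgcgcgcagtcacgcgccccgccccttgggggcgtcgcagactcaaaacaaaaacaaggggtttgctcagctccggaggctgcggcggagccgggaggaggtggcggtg
Mllt1: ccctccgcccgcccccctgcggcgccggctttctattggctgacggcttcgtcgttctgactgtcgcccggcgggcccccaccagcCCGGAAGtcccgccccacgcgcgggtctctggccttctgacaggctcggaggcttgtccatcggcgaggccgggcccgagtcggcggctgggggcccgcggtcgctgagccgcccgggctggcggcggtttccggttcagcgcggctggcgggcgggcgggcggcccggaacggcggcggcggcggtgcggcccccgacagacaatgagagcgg

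These windows held 21 and 46 CpG dinucleotides. The median over the members' windows was 27, against 23 in 1988 windows of other tag-enriched genes and 13 in 21263 windows of protein-coding genes. CCGGAAG was in 11 of 43 windows (25.6%), against 16.1% and 11.6%. The window shared by Zfp91 and Gm44505 holds the motif and was counted for each gene. The TATAAA motif was in 1 (2.33%), against 5.33% and 12.6%, and CCAAT in 16 (37.2%), against 37.6% and 38.2%. The counts describe these windows and show no binding by a factor.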

How the data were processed

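RNA was sequenced from input and anti-HA IP lysates in 14 groups of 3 libraries (7 groups by genotype and experiment, each with both fractions). Per the submitters' processing notes reads were converted with bcl2fastq 2.20 and aligned with STAR 2.7.3a to GRCm38 (mm10), and the library kit was stranded total RNA per the labels. The counter and annotation are not given in the sources used here. The deposited tables hold raw counts per gene, RPKM and a gene length per experiment (the authors' other columns give identifiers). CPM was a count over its column total, and enrichment used the group means. The count test was that of edgeR 4.0.16 under R 4.3.3 (TMM, filterByExpr, quasi-likelihood F test, 1 fit per experiment with a mean per group), with changes in enrichment as IP minus input in a genotype minus the same in its reference, and Benjamini-Hochberg adjustment over all genes at 0.05. All 44 RNAs passed the filter. DESeq2 1.42.0, other scalings, filters, fits and libraries left out in turn were alternatives. RPKM values were used as deposited, to compare levels per length. The fit was tested on simulated counts. The values of 1 of the 44 are not reported here.

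The members, lists and alternatives were chosen with earlier results of these data known. The genes named with values follow a rule: the 12 largest mean losses, the 5 lowest and 5 highest changes without Ago2, the 3 highest inputs, the 3 largest rises and falls of the input and the 3 genes nearest each side of the threshold. Others are named in role groups, calls or lists and were chosen after their values were seen. Replicates of a group differed by a chi-square of 2.87 to 64.1 per gene (genes with at least 50 counts in a pair, 42 pairs), so all libraries were kept as separate samples. Same-numbered libraries of 1 fraction in the genotypes compared had deviations correlated at -0.04 to 0.36, and same-numbered input and IP of a genotype at -0.13 to 0.12. No comparison had every pair above 0.1, and the labels do not say that a number marks a shared dish, so numbers were not taken to pair the samples.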

Additional observations from a re-analysis of the deposited data

How the results depend on the processing

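The number of genes meeting the rule ran from 41 to 51 with TMM library sizes, pseudocounts of 0.1 and 2 CPM, input minimums of 1 and 5 CPM and means of log2 values, and from 32 to 57 with single libraries left out, lowest without tagged IP replicate 1 of experiment 2. The 23 members lower without Ago2 were 13 when only the groups compared were fitted, 28 with the replicate block, and 20 to 32 with single libraries left out. The genes chosen in experiment 1 alone and lower without Ago2 were 60. This count and the input and IP counts of such genes were added after seeing the data. The 60 were 35 when only the groups compared were fitted, 75 with the block and 43 to 87 with single libraries left out. With single libraries left out, genes chosen in experiment 1 and higher in Trim71KO input numbered 54 to 65, and those chosen in experiment 2 numbered 22 to 35. Members still enriched in Ago2KO cells stayed at 43 in each fit. Genes chosen in experiment 1 and lower in experiment 2 numbered 44 to 101 with single libraries left out and 101 with the block, and those chosen in experiment 2 and lower in experiment 1 numbered 45 to 49. A replicate block by the number that input and IP of a genotype share, added after seeing the data, gave 30 members lower without Ago2, 43 still enriched, 77 genes chosen in experiment 1 and lower without Ago2, 109 chosen in experiment 1 and lower in experiment 2, and 48 chosen in experiment 2 and lower in experiment 1. With either block Nfib, Ash1l and Senp5 passed without Ago2 (edgeR adjusted p = 0.004 to 0.0316). Members differing in Ago2KO input (2) were 4 with library size alone, 4 with DESeq2, 15 when only the groups compared were fitted, 6 with the replicate block and 0 to 2 with single libraries left out. Members higher in Trim71KO input numbered 15 to 27 in experiment 1 and 17 to 21 in experiment 2 with single libraries left out. Changes without Ago2 reversed for Zfp827 (0.11 with library size alone, -0.29 to 0.29 with single libraries left out) and Zfp629 (0.017 and -0.33 to 0.059, the latter without tagged IP replicate 1). Library size alone moved the median change of all genes without Ago2 from 0.003 to 0.11. Causes were not tested. Few counts limit ENSMUSG00000076281, whose change in experiment 2 ran from -3.04 to -0.51 with single libraries left out.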
